A study of Mus musculus with 2 samples.

Results

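The 7 genes described here encode the enzymes that make and regenerate tetrahydrobiopterin and the protein that regulates the first of them: Gch1, Gchfr, Pts, Spr, Qdpr, Pcbd1 and Pcbd2. They were chosen by symbol, and all 7 were found among the 55536 genes of the gene tables. Total RNA was sequenced from adrenal glands of male B6CASTF1/J mice, a first-generation hybrid of a C57BL/6J and a CAST parent, at 2 months of age. The 2 libraries form 1 group with no treatment and no altered allele named in the labels, and each was made from 300 ng of RNA with a strand-keeping kit after ribosomal RNA removal, with ERCC spike-in RNAs added. They are labelled biological replicates 1 and 2, and the sample descriptions give them different animal numbers, although the donor field and the animal number in the library descriptions are the same for both. With a single group there was no contrast of conditions, so the levels below are a description, and any difference between replicates is a difference between single libraries.

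Tetrahydrobiopterin is the electron-donating cofactor of the aromatic amino acid hydroxylases, of the nitric oxide synthases and of alkylglycerol monooxygenase. It is made from GTP by GTP cyclohydrolase, 6-pyruvoyl-tetrahydropterin synthase and sepiapterin reductase, and the form left after a hydroxylase reaction is returned by a dehydratase and a reductase. In the adrenal gland its best-known user is tyrosine hydroxylase, which carries out the first step of catecholamine synthesis in the chromaffin cells of the medulla.

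Annotated genes drew 36182740 expected counts from the first library and 34149995 from the second. Expected counts are reads that the quantifier shares out among transcripts, and TPM divides them by transcript length and scales each library to one fixed total, so levels of different genes are compared on TPM alone. The 7 genes together held 6506 and 6032 expected counts, or 134.78 and 133.63 TPM, a summed level of 134.2 ± 0.813 TPM (SD, n = 2). All 7 stood at 1 TPM or more in both libraries. Of the 22015 nuclear protein-coding genes, 12107 had a mean of 1 TPM or more.

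The enzymes of synthesis lay in the middle of the range of levels, and the regulator of the first of them at its bottom. Gch1, the GTP cyclohydrolase and usual rate-limiting enzyme (ENSMUSG00000037580.10, chromosome 14, 47153895 to 47189413, minus strand, GRCm38), had 2332 and 2278 counts. Its level was 22.27 and 23.4 TPM, a mean of 22.8 ± 0.799 TPM over the pair. The libraries lay close together for this gene. Gchfr, the feedback regulatory protein that binds GTP cyclohydrolase (ENSMUSG00000046814.3, chromosome 2, 119167773 to 119172390, plus strand), was the lowest of the 7 at 5.84 and 6.99 TPM, from 124 and 138 counts. Within a library the TPM of Gchfr was 0.262 of that of Gch1 in replicate 1 and 0.299 in replicate 2. Pts, the 6-pyruvoyl-tetrahydropterin synthase (ENSMUSG00000032067.6, chromosome 9, 50521617 to 50528724, minus strand), stood at 17.22 and 16.86 TPM from 614 and 571 counts. Spr, sepiapterin reductase (ENSMUSG00000033735.9, chromosome 6, 85130176 to 85137766, minus strand), stood at 21.66 and 21.74 TPM from 954 and 901 counts, with the smallest spread of the 7 at 21.7 ± 0.0566 TPM.

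The genes of regeneration spanned nearly the whole range of levels, with Qdpr at the top, Pcbd2 in the middle and Pcbd1 low. Qdpr, the dihydropteridine reductase that restores the reduced cofactor (ENSMUSG00000015806.12, chromosome 5, 45434021 to 45450236, minus strand), stood at 40.05 and 37.18 TPM from 1940 and 1633 counts. It was the highest of the 7 in each library, at 1.8 and 1.59 times the TPM of Gch1. Pcbd1 and Pcbd2 encode related dehydratases of the step before it. Pcbd1 (ENSMUSG00000020098.7, chromosome 10, 61089331 to 61094324, plus strand) stood at 6.38 and 7.61 TPM from 171 and 190 counts. Pcbd2 (ENSMUSG00000021496.12, chromosome 13, 55727368 to 55776830, plus strand) stood at 21.36 and 19.85 TPM from 371 and 321 counts. The level of Pcbd2 was 3.35 times that of Pcbd1 in replicate 1 and 2.61 times in replicate 2, so the order of the pair was the same in both.

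**Figure D1:**
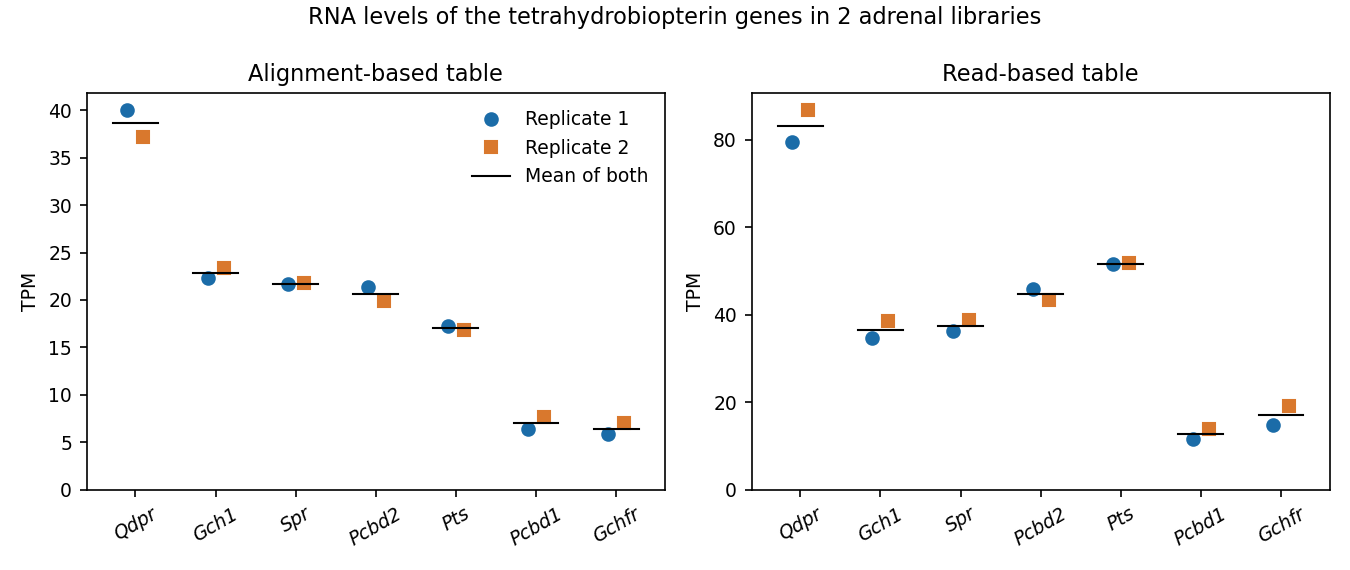
TPM of the 7 genes (vertical axis, from 0) in replicate 1 (circles) and replicate 2 (squares) with the mean of both as a line, from the alignment-based gene tables on the left and the read-based tables on the right. Qdpr is highest in both panels, and Pts moves from the fifth place on the left, at 17.22 and 16.86 TPM, to the second on the right, at 51.5 and 51.9 TPM.

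Ordered by alignment-based TPM, each library ran Qdpr, Gch1, Spr, Pcbd2, Pts, Pcbd1, Gchfr. Qdpr lay above Gch1 and Pts above Pcbd1 in both libraries, and in these pairs the TPM intervals that the authors deposited also did not overlap. Gch1, Spr and Pcbd2 stood at means of 22.8, 21.7 and 20.6 TPM, and their deposited intervals overlapped, as did those of Pcbd2 and Pts. The levels of Pcbd1 and Gchfr, at 7 ± 0.87 and 6.42 ± 0.813 TPM, overlapped between the libraries, so this pair did not differ beyond its spread. Among the 12107 nuclear protein-coding genes with a mean of 1 TPM or more, whose median level was 9.54 TPM, Qdpr lay at percentile 88. Gch1, Spr, Pcbd2 and Pts lay between percentiles 69.5 and 77.8, and Pcbd1 and Gchfr lay below the median at 40.2 and 37.1. By read-based TPM, over 13092 such genes, Gchfr lay above the median at 52.4, Pcbd1 stayed below it at 43.9, and Pts lay at 82.8.

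Replicate 2 was then set against replicate 1. Of the 12430 genes that averaged at least 100 counts, 56 were over 2-fold apart (0.451%), and none of the 7 was. None was over 1.5-fold apart either, where 2.68% of all genes tested were, so with 7 genes these counts of 0 do not set the members apart. The log2 ratio of replicate 2 over replicate 1 ran from -0.24 for Qdpr to 0.16 for Gchfr, with a median of -0.07. The median of its absolute value was 0.16 over the 7 genes and 0.11 over all 12430. Qdpr was 0.848 times as high in replicate 2 by scaled counts (log2 ratio -0.24, 95% Clopper-Pearson counting interval -0.33 to -0.14). It was the only one of the 7 whose interval left out 0. Of all genes tested, 38.6% had such an interval, and 19.8% had one on the lower side. The ratio of Qdpr was -0.17 with library sizes left unscaled and -0.11 as the ratio of alignment-based TPM. By read-based counts it was -0.23. By read-based TPM the direction for Qdpr was the opposite, at 79.6 in replicate 1 and 86.9 in replicate 2. Of that TPM its transcript Qdpr-206, described below, held 5.34 and 17.7. Gch1 had a log2 ratio of -0.02 (-0.11 to 0.06), Spr of -0.07 (-0.21 to 0.06) and Pts of -0.09 (-0.26 to 0.07). The genes with the fewest counts had the widest intervals, -0.14 to 0.47 for Pcbd1 and -0.2 to 0.53 for Gchfr. These intervals cover counting error only and treat each count as independent. The reads carry no molecular identifiers, so that independence could not be checked. With 1 library on each side no test of the difference was made.

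**Figure D2:**
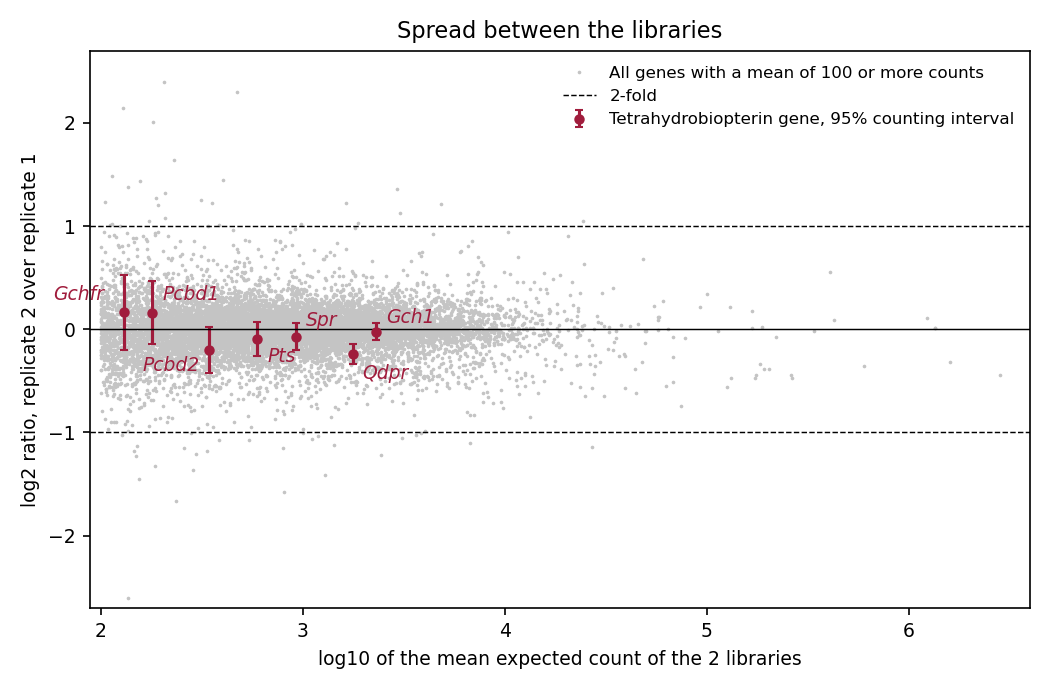
Log2 ratio of replicate 2 over replicate 1 against the log10 mean expected count for all 12430 genes averaging at least 100 (grey; genes beyond the vertical axis are drawn at its edge), with the 7 genes in red and their 95% counting intervals as bars. All 7 lie between the dashed 2-fold lines, and the bar of Qdpr alone does not cross 0.

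The annotation lists 1 transcript for Gchfr, 2 each for Gch1, Pcbd1 and Pcbd2, 4 for Spr, 10 for Qdpr and 12 for Pts. For all 6 genes with several transcripts the same transcript led in both libraries, and the read-based tables named the same leaders. The same count over all genes was not taken. For Pcbd2 the read-based lead in replicate 2 was only 52.5% against 47.5%, between transcripts that differ by 2 end bases. How much of the gene the leading transcript held depended on the gene and on the table. The leading transcript of Gch1 held 97.4% and 98% of the gene's TPM in replicates 1 and 2, that of Spr 95.8% and 95.9%, and Pcbd1-201 and Gchfr-201 held 100%. Qdpr, Pts and Pcbd2 were divided, in different ways.

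Qdpr-201, the leading transcript, held 82.4% of the TPM of Qdpr in replicate 1 and 64.3% in replicate 2. The remainder went mostly to Qdpr-203, with 15.5% and 30.2%, from 274 and 460 expected counts. The read-based tables gave Qdpr-201 64.6% and 52.1%, Qdpr-203 3% and 6.77%, and Qdpr-202, which held 0 and 0.01 expected counts in the alignment-based tables, 10.9% and 8.73%. These transcripts share their second to last exons and differ in the first. The exon of Qdpr-201 (45450007 to 45450236) contains 96 coding bases. That of Qdpr-203 (45450090 to 45450171) lies inside it and ends at an earlier splice donor, and that of Qdpr-202 (45448093 to 45448173) lies downstream. Both are annotated without coding bases in the first exon and with 33 in the second, where Qdpr-201 has 93, so their coding sequence is 567 bases against 723. The junctions to the shared second exon are shown because they are what tells the transcripts apart, with 15 bases on each side and the second exon in capitals, 5′ to 3′, from the GENCODE M21 transcripts on GRCm38, minus strand:
Qdpr-201: cgggcccgcaactggTGGGTTGCCAGCATC
Qdpr-203: ggatggcggcttcagTGGGTTGCCAGCATC
Qdpr-202: aaggatgtctgggagTGGGTTGCCAGCATC

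The capitals are the same in all 3 lines and the lower-case parts are not, so a read that does not reach back into the first exon cannot be placed. The junction of Qdpr-201 also occurs in Qdpr-208, and that of Qdpr-203 in Qdpr-209. Of the 1202 overlapping words of 31 bases in Qdpr-203, 0 were found in that transcript alone, against 60 of 1350 for Qdpr-201 and 78 of 1201 for Qdpr-202. The deposited interval of the TPM of Qdpr-203 was 0.00175 to 6.72 beside an estimate of 6.22 in replicate 1. In replicate 2 it was 0.191 to 9.7, and the estimate of 11.21 TPM lay outside it. The read-based tables also placed 6.71% and 20.4% of Qdpr on Qdpr-206, a processed transcript of 561 bases, and 13.4% and 10.5% on Qdpr-210, a retained-intron transcript, to which the alignment-based tables gave 0% and 3.79%. Qdpr-206 held 0 expected counts in both alignment-based tables. In the read-based ones it held 33.7 and 98.2 estimated counts, 1.75% and 5.96% of those of the gene. Its read-based effective length in replicate 1 was 238 bases, against 1055 for Qdpr-201. Qdpr-210 held 159 and 120 estimated counts (8.25% and 7.31%).

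**Figure D3:**
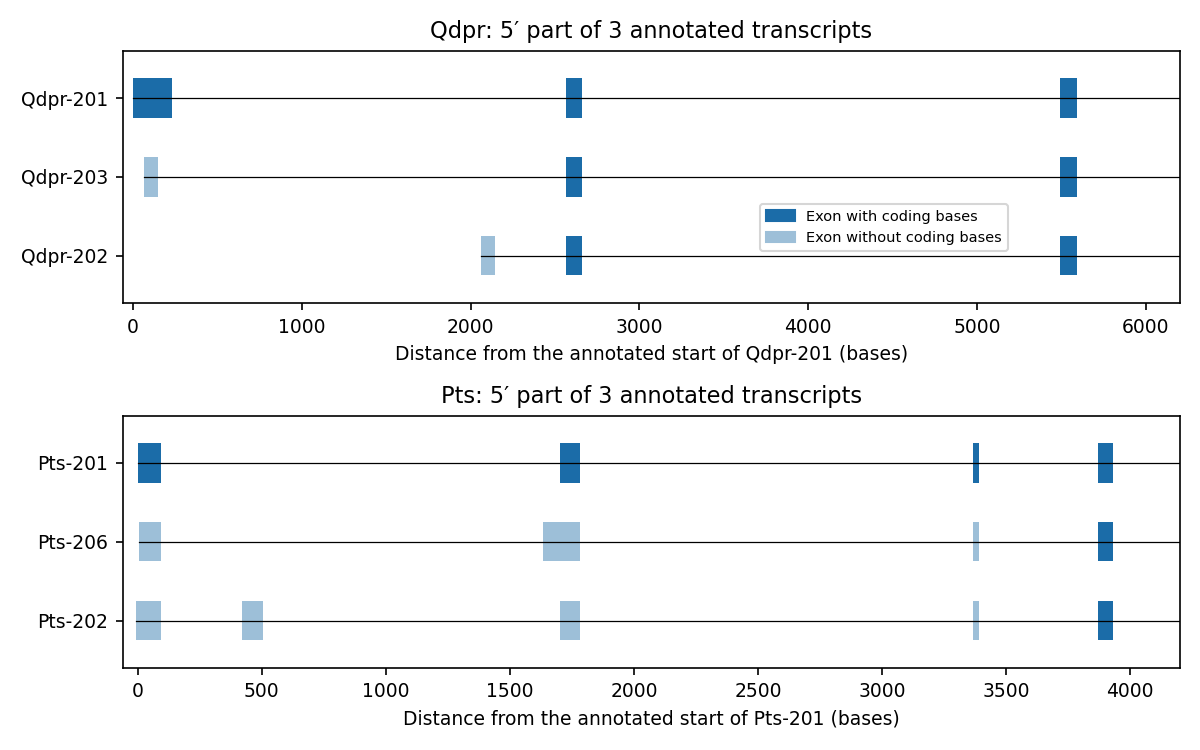
Exons (boxes) and introns (lines) at the 5′ end of 3 transcripts of Qdpr and of Pts, by distance in bases from the annotated start of the leading transcript, with exons that hold coding bases in dark blue. Qdpr-203 and Qdpr-202 differ from Qdpr-201 in the first exon, and Pts-206 and Pts-202 differ from Pts-201 in a longer second exon and an added exon.

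Pts-201 held 78.1% and 78.5% of the TPM of Pts in the alignment-based tables but 41.9% and 45.4% in the read-based tables. There Pts-206 took 26.6% and 28.1% and Pts-202 25.3% and 18.8%, where the alignment-based tables gave them 2.84% and 0.95%, and 4.12% and 2.79%. Pts-206 and Pts-202 share the first splice donor of Pts-201 and join it to other sequence. The second exon is 80 bases long in Pts-201 and 147 in Pts-206 (50526870 to 50527016), and Pts-202 has an exon of 87 bases (50528146 to 50528232) before it. The coding sequence is 432 bases in Pts-201, 231 in Pts-206 and 69 in Pts-202. Their first junctions, with the first exon in lower case and the second in capitals, were:
Pts-201: ccaccggctgcacagCCCATCTCTGAGCGA
Pts-206: ccaccggctgcacagTGACATGAAATTGTA
Pts-202: ccaccggctgcacagGAGCAACACAGTCGG

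Here the lower-case parts are identical and the capitals differ, the reverse of Qdpr. The third junction is not particular to Pts-202, since 5 of the 12 transcripts contain it, and the first occurs in 3. Counts were divided differently too. Pts-201 held 80.6% and 79.4% of the expected counts of Pts and 64.1% and 64.5% of the estimated counts of the read-based tables. Pts-206 held 7.79 and 2.44 expected counts (1.27% and 0.427%) but 69.6 and 65.2 estimated counts (10.8% and 10.6%). Pts-202 held 7.7 and 4.79 expected counts (1.25% and 0.839%) and 34.2 and 22.6 estimated counts (5.31% and 3.66%). The retained-intron transcript Pts-203 went from 5.84% and 5.34% of the expected counts to 11.1% and 12.3% of the estimated counts, at 1.66% to 2.24% of the TPM in all 4 tables. Pts-206 is 511 bases long, and the effective length by which counts are divided was 412 bases in the alignment-based table and 192 in the read-based one, so both the counts and the length it was divided by differed. In replicate 1 its 69.6 estimated counts became 13.7 TPM. For Pts-202, of 379 bases, the effective length in replicate 1 was 280 bases in the alignment-based table and 98.9 in the read-based one. Its 34.2 estimated counts became 13 TPM there, so its share of TPM was well above its share of counts.

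Pts also held the largest share of counts on transcripts annotated as retained introns or otherwise without coding sequence, 16.9% and 19.3% of its expected counts. The share was 3.22% and 2.5% for Gch1, 2.39% and 3.18% for Spr, counting a transcript annotated for nonsense-mediated decay, and 0% and 2.46% for Qdpr. The medians over 9475 nuclear protein-coding genes that have such a transcript and average at least 100 counts were 4.56% and 5.21%. By read-based counts Pts was at 19.8% and 21.3% and Qdpr at 10% and 13.3%, against medians of 5.11% and 5.83%. For Gch1 this share is 1 transcript, Gch1-202, an unspliced stretch of 3508 bases (47158365 to 47161872) that covers a short coding exon and intron on both sides, with 75 and 57 expected counts. In total RNA, retained introns and RNA not yet spliced cannot be told apart from these tables.

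Pcbd2 was divided only in the read-based tables, which gave Pcbd2-201 15.9% of its TPM in replicate 1 and 47.5% in replicate 2. The alignment-based tables gave all 371 and 321 counts to Pcbd2-202. The transcripts have the same 4 exons. Pcbd2-201 is 544 bases long and is identical to the first 544 of the 546 bases of Pcbd2-202, which ends 2 bases later. None of its words of 31 bases is its own, and 2 of the 516 in Pcbd2-202 are. The deposited interval for Pcbd2-201 reached 13.5 TPM in replicate 1 beside an estimate of 0, while that of the whole gene was 19 to 23.3 TPM. The 2 transcripts are annotated with different coding starts, at 408 and 309 coding bases, so the split does not show which start is used.

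**Figure D4:**
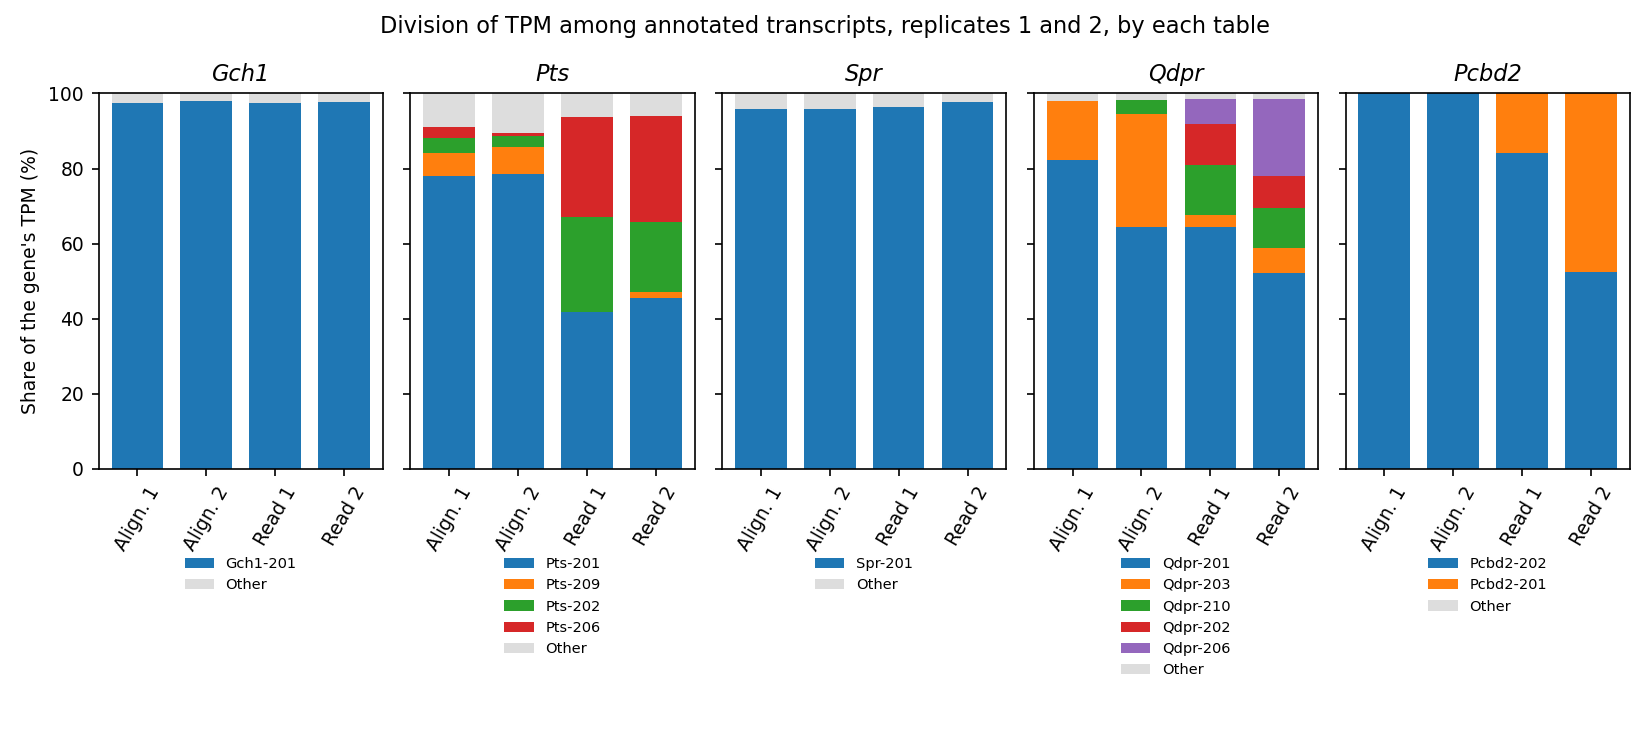
Share of each gene's TPM (vertical axis, percent) on its annotated transcripts in replicates 1 and 2, from the alignment-based (Align.) and read-based (Read) tables; transcripts that reach 5% in no bar are summed as Other. Gch1 and Spr look alike in all 4 bars, while Pts, Qdpr and Pcbd2 are divided differently by the 2 kinds of table.

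Pcbd1 and Pcbd2 have the same exon plan, with a second exon of 132 bases and the third of 81 in each leading transcript, and were compared because copies can share reads. The third exon, all coding, is shown with the bases that differ between the genes in capitals (Pcbd1, chromosome 10, 61092604 to 61092684; Pcbd2, chromosome 13, 55775367 to 55775447; both plus strand):
Pcbd1-201: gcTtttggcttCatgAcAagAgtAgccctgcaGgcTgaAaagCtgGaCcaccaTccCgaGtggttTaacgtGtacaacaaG
Pcbd2-202: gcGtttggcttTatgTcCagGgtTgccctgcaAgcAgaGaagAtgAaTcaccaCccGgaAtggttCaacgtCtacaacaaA

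Of the 81 bases 63 were identical (77.8%), and the longest identical run was 8 bases. In the second exon 80 of 132 bases were identical (60.6%), with a longest run of 7. No word of 31 bases was shared between Pcbd1 or Pcbd2 and any other gene, so identical stretches of that length link neither to another gene. Of the leading transcripts, those of Spr and Pts shared such words with other genes. The pseudogene Spr-ps1, named after the overlap was seen, contains 13.2% of the 31-base words of Spr-201 (159 of 1200). It had 20.9 and 16.7 expected counts against 954 and 901 for Spr. For Pts-201 the share was 4.23% (43 of 1016), spread over many genes. Antisense genes overlap Qdpr and Pcbd2, and each had 0 expected counts in both libraries. The processed pseudogene Gm18811 lies within Gch1 on its strand and had 7 and 6 counts.

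The read-based tables gave higher TPM for every gene of the 7. Dividing read-based by alignment-based TPM gave medians of 1.8 and 1.91 for replicates 1 and 2 over 11892 nuclear protein-coding genes at 1 TPM or more in all 4 tables. Nuclear protein-coding genes held 29.7% and 30.4% of the TPM in the alignment-based tables and 59.4% and 63.9% in the read-based ones, so a part of the ratio is shared by all genes. Pts exceeded it most, at 2.99 and 3.08, although its counts differed by only 1.05 and 1.08 times. Gchfr followed at 2.54 and 2.73 with a count ratio of 1.02 and 1.04. Its single transcript of 645 bases was divided by an effective length of 546 bases in one kind of table and 320 in the other. Gch1, with a leading transcript of 2775 bases, was below the median at 1.55 and 1.65. Pcbd2 had the lowest count ratio, 0.733 and 0.704, and a TPM ratio of 2.15 and 2.19. By read-based TPM the order was Qdpr, Pts, Pcbd2, Spr, Gch1, Gchfr, Pcbd1 in both libraries. The places of Qdpr at the top and of Pcbd1 and Gchfr at the bottom were thus shared by the tables, while those of the genes between them and the order of the lowest pair were not. The ratio of Gchfr to Gch1 was 0.428 and 0.496 by read-based TPM.

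Among the 7 enzymes listed that use the cofactor, 3 reached 1 TPM in both libraries. Th, tyrosine hydroxylase, stood at 395.08 and 333.58 TPM, which was 17.7 and 14.3 times the level of Gch1. By read-based TPM it was 23.6 and 18.9 times that level. Nos3, the endothelial nitric oxide synthase, stood at 3.93 and 4.06 TPM, and Agmo, alkylglycerol monooxygenase, at 3.19 and 2.56 TPM. The other nitric oxide synthases were lower, Nos2 with 0.56 and 0.65 TPM and Nos1 with 0.07 and 0.12 TPM. The tryptophan hydroxylases were at the limit of detection, with 0 and 1 counts for Tph1 and 2 and 0 counts for Tph2, where a count of 0 allows up to 3 counts. Of the enzymes after Th, Ddc stood at 25.04 and 26.6 TPM, Dbh at 184.28 and 160.56 and Pnmt at 174 and 154.89. Ddc, the aromatic amino acid decarboxylase, was thus near the level of Gch1 and the others were several times higher. Dnajc12, a co-chaperone of the aromatic hydroxylases, stood at 5.56 and 6.53 TPM.

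Of the other reductases known to act on biopterins, Akr1b3, an aldose reductase, stood at 101.97 and 122.71 TPM, 4.71 and 5.64 times the level of Spr, or 7.93 and 9.7 times by read-based TPM. Cbr1, a carbonyl reductase, stood at 23.86 and 23.95 TPM, 1.1 times Spr in each library.

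**Figure D5:**
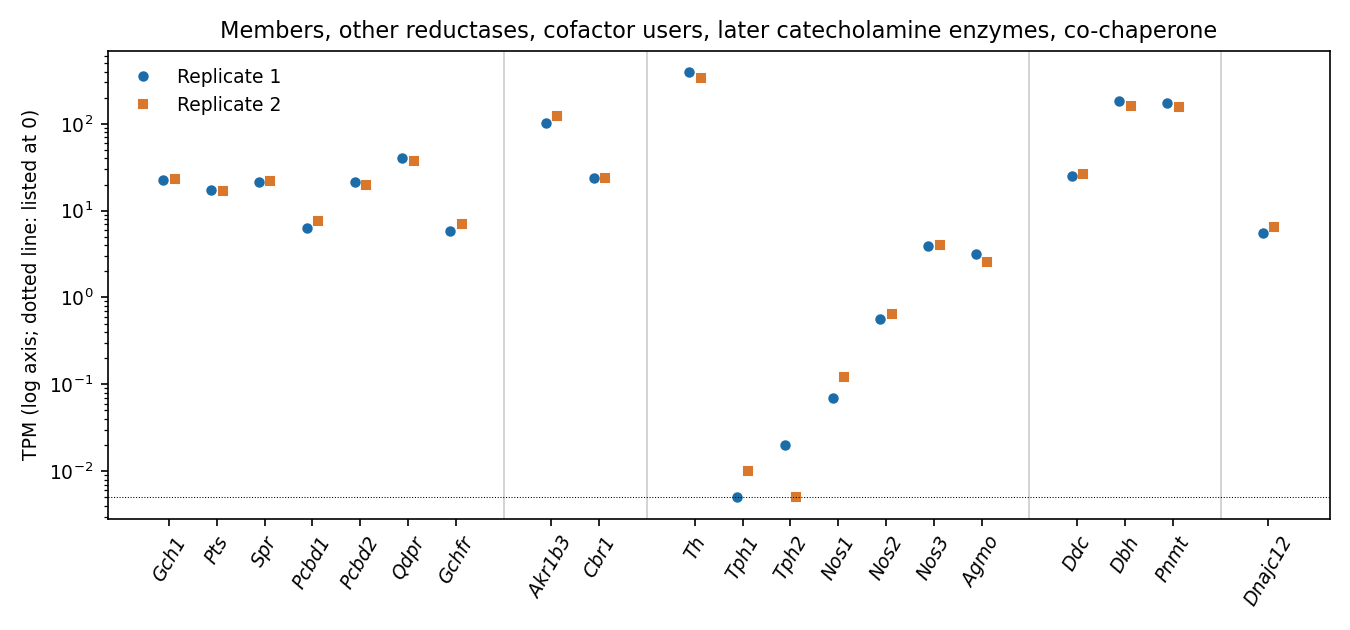
TPM on a log axis in replicate 1 (circles) and replicate 2 (squares) for the 7 genes, the other reductases, the cofactor users, the later catecholamine enzymes and Dnajc12, in panels divided by grey lines. Th at 395.08 and 333.58 TPM lies above all other genes shown, and Tph1 and Tph2 lie at or near the dotted line for genes listed at 0.

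Defining markers of the labelled tissue were present: all 8 cortex markers and all 10 chromaffin markers reached 1 TPM in both libraries. The chromaffin markers summed to 2902 and 2529 TPM. Their median log2 ratio was -0.27, and for 8 of the 10 the counting interval lay below 0. Th had a log2 ratio of -0.34 (-0.36 to -0.31), Dbh of -0.29 (-0.32 to -0.25) and Pnmt of -0.26 (-0.31 to -0.21). The interval of Gch1, -0.11 to 0.06, did not overlap any of these, while that of Qdpr, -0.33 to -0.14, overlapped all 3; these intervals hold counting error alone. Whether the members' RNA came from chromaffin cells was not tested, and in bulk tissue fewer cells of a type cannot be told apart from less RNA per cell. Agmo also was lower in replicate 2 (log2 ratio -0.4, -0.67 to -0.15), and Nos3 was at -0.05 (-0.21 to 0.12) beside 5 endothelial markers with a median of 0.08.

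Markers of liver and kidney, organs known for these enzymes, were scarce, with summed levels higher in replicate 2. The 7 liver markers summed to 3.67 and 9.43 TPM and the 6 kidney markers to 2.67 and 5.84 TPM. Of the liver markers Alb had 66 and 347 counts, or 0.88 and 5.06 TPM. Apoa1 had 18 and 47 counts, Fgb 11 and 45, Tat 6 and 17, and Ttr 13 and 20. Serpina1a had 21.8 and 24 counts and Apoa2 19 and 16. Of the kidney markers Kap had 30 and 90 counts (log2 ratio 1.58, 0.98 to 2.24), Slc34a1 22 and 40, Slc22a6 2 and 13, and Aqp2 52 and 49. Umod had 0 and 2 counts, and Slc12a1 had 0 in both. The highest ratios of replicate 2 over replicate 1 among the members were those of Pcbd1 and Gchfr, both 0.16 on the log2 scale with intervals that include 0, and the part of the liver and kidney RNA in their values was not tested. Mast cell markers summed to 2.83 and 2.75 TPM. Summed markers of brown fat, white fat and red cells were lower in replicate 2, at 1376 and 695, 3226 and 2548, and 1948 and 1174 TPM, and their part in the ratio of Qdpr was not tested.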

How the data were processed

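For each library the authors deposited, per the file headers, a gene table and a transcript table with expected counts, TPM, FPKM and, for transcripts, the percent of the gene per isoform. Per the file notes these derive from transcriptome alignments, and they are called alignment-based. The column names are those RSEM writes. The authors' read-based transcript tables hold, per the file headers, estimated counts with TPM under the column names kallisto writes. The build was mm10 (GRCm38) with GENCODE M21, per the labels and file notes; tools and versions are not given in the sources used here. The deposited TPM intervals carry no stated level. FPKM was not used for any comparison. Whether reads of the CAST allele were counted as well as the other was not tested.

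Rows that are no annotated gene held 0.904% and 0.885% of the expected counts and were left out of library sizes. Read-based values were summed per gene. For ratios, 0.5 was added to each expected count and the sum divided by a TMM-scaled library size (edgeR 4.0.16, with genes reaching 10 counts in each library); the log2 of the second library against the first was taken. Size factors of DESeq2 1.42.0 were an alternative. Intervals are exact Clopper-Pearson intervals of the share of counts in replicate 2, at 95%. Calls of a 2-fold difference needed an average of at least 100 counts; the procedure was tested on simulated data. With 1 group no p-value was computed. Isoform shares are of summed transcript TPM. Junction and exon sequences, and the sharing of 31-base words, come from the GENCODE M21 transcripts.

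The labels do not say more about the replicates than the animal numbers, so their spread may be partly technical. The members, the lists and the named genes were chosen with earlier results of these data known. Named genes are the 7 members, listed cofactor users, reductases and catecholamine enzymes, and each transcript with a share of 10% or more; with 1 group no genes were ranked by likeness. Some listed genes are not reported here. Alternatives tried were other scalings, the read-based tables, other minimums, and each library alone.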

Additional observations from a re-analysis of the deposited data

How the results depend on the processing

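The count of 0 of 7 genes over 2-fold apart was the same under DESeq2 size factors, total-count scaling, the ratio of deposited TPM, read-based counts, 5 added counts, no minimum count and a 1.5-fold limit. Dropping the minimum could not change that count, since all 7 averaged at least 100 counts. Over all genes the count of 56 became 5690 with no minimum count, where genes with few counts enter, and 333 at 1.5-fold; under the other 5 settings it was 49 to 72. All 7 genes reached 1 TPM in the read-based tables. That they did so in each library alone follows from the main count. By alignment-based TPM 5 reached 10 TPM in both libraries. By read-based TPM even Pcbd1, the lowest there, stood at 11.5 and 13.9 TPM. The median log2 ratio of all genes was 0.07 with total-count scaling and 0.08 with the TPM ratio, against -0.0044 with TMM. Under these 2 scalings the ratios of 2 genes each changed sign, Gch1 to 0.05 and 0.07 and Spr to 0.0013 and 0.0053. All other signs held under every scaling tried. Read-based TPM was not among these scalings. By it only Pcbd2 stood lower in replicate 2, at 45.9 and 43.5 TPM in replicates 1 and 2. Qdpr stood higher there, at 79.6 and 86.9 TPM, although its log2 ratio by read-based counts was -0.23. Pts was at 51.5 and 51.9 TPM. The leading transcript was the same in both libraries for 6 of 6 genes in the read-based tables and by expected counts. Its share moved beyond 1 SD for 4 of 6 genes with read-based TPM, and the cause was not tested. As a share of expected counts it moved for 3 of 6 (Gch1, Pts and Spr). Expected counts, unlike TPM, are not divided by effective length. The depth limits Gchfr and Pcbd1 most, at 124 to 190 counts. All 7 mean levels moved beyond 1 SD with read-based TPM, or with TPM rescaled to nuclear protein-coding genes. The rescaling multiplies every gene of a library by the same factor, so that move was fixed in advance and tests nothing about these genes.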
